A study of Mus musculus with 12 samples.

Results

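Long noncoding RNAs (lncRNAs) are transcripts with no long open reading frame, and some of them stay in the nucleus or come from imprinted loci, where only the copy inherited from 1 parent is transcribed. 10 such genes were examined in mouse lung: Malat1, Neat1, Meg3, Rian, Mirg, Kcnq1ot1, H19, Gas5, Snhg1 and Snhg11. A peak was taken as theirs when the deposited list assigned it to 1 of these names, or when it had been called on the gene model of 1 of them, whatever its transcript type. By this rule 30 of the 27292 peaks listed for mice with ovalbumin-induced airway allergy (OVA) were members, and 31 of the 26102 listed for control mice (PBS). They lay on 7 of the 10 genes, and H19, Gas5 and Snhg1 had no peak in either list.

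N6-methyladenosine (m6A) is a methyl mark on adenosine that a methyltransferase complex built around METTL3 places on RNA while it is being made. Reader proteins, among them YTHDC1 in the nucleus, bind the mark and act on splicing, export or decay of the transcript. MALAT1 and XIST are among the best known lncRNAs that carry it.

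The study compared lung tissue of mice with allergic airway inflammation and of control mice by m6A-seq (MeRIP-seq). All mice were female BALB/c animals aged 6 to 8 weeks. OVA mice were sensitised by injection of ovalbumin with alum on days 0 and 7. From day 14 to day 20 they breathed an aerosol of 3% ovalbumin for 30 min once daily. PBS mice were injected with phosphate-buffered saline alone, without ovalbumin or alum, and were exposed to it in place of the ovalbumin aerosol. Lungs were taken on day 21 from 3 mice per group, and RNA freed of ribosomal RNA was fragmented and sequenced with (IP) and without (input) pull-down by an m6A antibody.

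The authors deposited 1 peak list per group, made from its 3 IP and 3 input libraries, so the lists hold no value of a single mouse, and differences between them are given here without a test. Each peak has a fold enrichment, the ratio of IP over input within the peak, and p and false discovery rate (FDR) values given as log10. Read counts per peak are not part of these lists, so the depth behind a single fold enrichment is unknown. Whole lung holds many cell types, and a shift in the cells present cannot be told apart from a shift in methylation per cell. Positions are on GRCm38, counted from 1.

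Kcnq1ot1 held the most member peaks, 9 (OVA) and 13 (PBS). Neat1 had 7 and 9, and Malat1 4 and 3, many of them repeat calls on nested models of these genes. Meg3, Rian and Snhg11 each had 3 OVA peaks and 2 PBS peaks, and Mirg had 1 OVA peak and no PBS peak. With overlapping calls on a gene joined, Neat1 had 3 OVA regions, as many as Meg3, Rian and Snhg11, and 4 PBS regions, while Malat1 had 2 in each list. Among the 710 RefSeq lncRNA genes with a peak in the PBS list none had more than Kcnq1ot1, and 1 of 758 did in the OVA list. This ranks raw counts of peaks and takes no account of length. Kcnq1ot1 spans 83437 bp, beside 6983 bp for Malat1. Across all RefSeq lncRNA genes 7.06% had a peak in either list under a matching symbol, beside 7 of the 10 members, which were picked as well-known RNAs.

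Most member peaks recurred. Of the OVA member peaks 25 of 30 (83.3%, 95% Wilson interval 66.4% to 92.7%, counting error only) shared at least 1 exonic base with a PBS peak, beside 80.5% of all OVA peaks. Of the PBS member peaks 26 of 31 (83.9%, 67.4% to 92.9%) overlapped an OVA peak, beside 85.4% of all PBS peaks. Both shares lay near those of the whole lists. Peaks called on RefSeq lncRNA genes overlapped in 69.0% (OVA) and 73.0% (PBS), which lie within the intervals of the members. The 5 PBS peaks without a counterpart all lay on Kcnq1ot1, which held 13 of the 31 PBS member peaks. Of these 5, 1 had an FDR of 0.117. The 5 OVA peaks without a counterpart lay on Meg3, Rian, Mirg, Kcnq1ot1 and Snhg11.

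Fold enrichment was modest for most member peaks. The median was 3.12 over the OVA members (range 1.91 to 15.4), beside 5.59 over all OVA peaks, and 3.82 over the PBS members (range 1.44 to 26.1), beside 5.44 over all PBS peaks. Peaks called on RefSeq lncRNA genes as a class had medians of 6.85 and 6.29. An FDR under 0.05 was met by 30 of 30 OVA members, against 98.1% of that list, and by 29 of 31 PBS members, against 97.8%. The plot of fold enrichment by gene shows that Malat1, Neat1, Meg3, Rian and Kcnq1ot1 each combined peaks above the median of their list with weaker ones in at least 1 list. The single Mirg peak lay above the median, and all Snhg11 peaks lay below it.

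**Figure D1:**
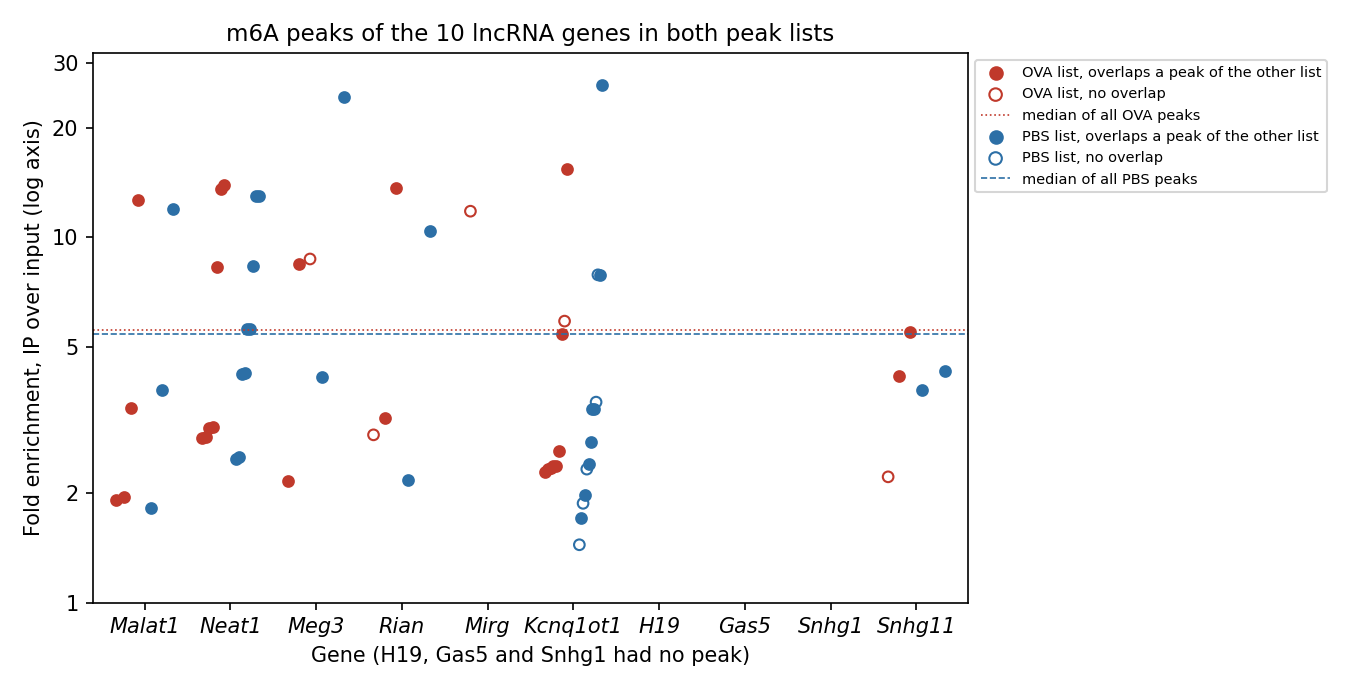
Fold enrichment of IP over input (log axis) for each member peak, by gene, in the OVA list (red) and the PBS list (blue); open symbols have no overlapping peak in the other list, and the dotted and dashed lines are the medians of all OVA peaks (5.59) and all PBS peaks (5.44). The highest points are the Kcnq1ot1 peak (26.1) and the Meg3 peak (24.2) of the PBS list; the Neat1 points include the peak called on Frmd8.

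Malat1 is an abundant RNA of nuclear speckles, the bodies where splicing factors gather. On chromosome 19 it covers 5795690 to 5802672 on the minus strand, so its 5′ end is at the higher coordinate. A peak reaching its 5′ end was the strongest of the gene in both lists. It spanned chr19:5801024-5802672 with a fold enrichment of 12.7 (OVA) and chr19:5800994-5802672 with 12 (PBS). These values stood above 78.8% of OVA peaks and 78.7% of PBS peaks.

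In p value the same peak was more extreme. Its log10 p was -211000 in the OVA list, where only the 37 peaks whose p is listed as 0 ranked before it, and -230000 in the PBS list, where only 25 such peaks did. A p value falls with the number of reads as well as with enrichment. Reads per peak are not in these lists, so what depth adds to these values was not tested.

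A weaker Malat1 peak had the same borders in both lists, chr19:5798986-5799346, close to the middle of the transcript. Its fold enrichment was 1.95 (OVA) and 1.81 (PBS). The lists assign it to Gm27694, a small RNA model of 86 bases that lies inside it and had a called peak of its own, with 1.44 (OVA) and 1.66 (PBS).

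The other Malat1 peaks came from a short transcript model (chr19:5801916-5802671) nested in the 5′ peak. In the OVA list this model carried a peak at chr19:5801916-5802272 with a fold enrichment of 1.91 over 86 exonic bases, assigned to Gm37376, and a peak at chr19:5802329-5802671 with 3.42. In the PBS list it carried a single peak over chr19:5801916-5802671 with a fold enrichment of 3.82 over 485 exonic bases. Gm37376, annotated on the opposite strand, also had a called peak of its own in each list, with fold enrichments of 2.37 and 3.35. Whether peak calling used the strand of the reads is not stated in the sources used here, so the values of Malat1 and Gm37376 may rest on the same reads. Counted once, the Malat1 peaks formed 2 regions in each list, which covered 28.8% of the gene (OVA) and 29.2% (PBS).

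The first 50 bases of the Malat1 RNA lay inside the 5′ peak of both lists, and they are printed because they are the part of this peak that RefSeq's table of gene starts holds (chr19:5802623-5802672, minus strand, GRCm38.p6). The core of the sequence at which METTL3 acts was searched on the transcribed strand, in the forms that open with G (GGAC and also GAAC) and in those that open with A (AGAC and also AAAC). None of these stood in the Malat1 window, while 50.8% of all 32851 RefSeq windows of 50 bases held at least 1.
Malat1: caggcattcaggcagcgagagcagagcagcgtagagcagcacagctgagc

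Neat1 is the scaffold of paraspeckles, nuclear bodies that hold RNA-binding proteins, and is made as a short and a long isoform from the same start. The long isoform is the one that builds the body. All peaks called on Neat1 lay within its short model, chr19:5842307-5845476, or ran up to 2 bases past its 5′ end, and none lay in the 17599 bases that the long model (chr19:5824708-5845478) adds. Read depth over that stretch is not in the lists, so the lack of a peak there cannot be told apart from low depth. The lists call each Neat1 peak separately on both models, so the 6 OVA and 8 PBS peaks correspond to 3 and 4 regions.

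The strongest Neat1 peak of the OVA list spanned chr19:5843199-5844626, with a fold enrichment of 13.9 and a log10 p of -27800. In the PBS list the same stretch was called as a pair of peaks, chr19:5843199-5844269 with a fold enrichment of 13 and a log10 p of -20600, and chr19:5844359-5844626 with 5.63. The pair of PBS peaks called on Neat1 left a gap within the span of the OVA peak. The copies on the long model had values of 13.6 (OVA) and of 13 and 5.63 (PBS). The widest Neat1 peak of the OVA list was the copy at chr19:5843200-5844639, and that of the PBS list the copy at chr19:5843200-5844279.

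At the 5′ end of Neat1 a narrow peak reached a fold enrichment of 3.01 to 3.03 (OVA) and of 4.22 to 4.25 (PBS). At the 3′ end of the short isoform, the peaks from 5842307 and 5842361 onward had 2.83 and 2.84 in the OVA list, and those from 5842307 and 5842421 onward had 2.48 and 2.50 in the PBS list. The regions covered 9.39% of the gene (OVA) and 9.14% (PBS). Peaks in the body of Neat1 were assigned to Gm27533, a small RNA model of 152 bases at chr19:5844286-5844437. This model also had called peaks of its own, at chr19:5844286-5844437 (OVA, 2.05) and chr19:5844311-5844437 (PBS, 1.61), the latter reaching into the gap.

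A last peak carries the name Neat1 but lies outside it. It was called on Frmd8, a protein-coding neighbour, within a 3′ untranslated region at chr19:5852123-5852601 (OVA) and chr19:5852123-5852631 (PBS). Its fold enrichment was 8.30 and 8.37, and the lists place it -7123 and -7153 bp from the start of Neat1. Without it, the highest Neat1 values remain those of the 13.9 and 13 peaks.

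**Figure D2:**
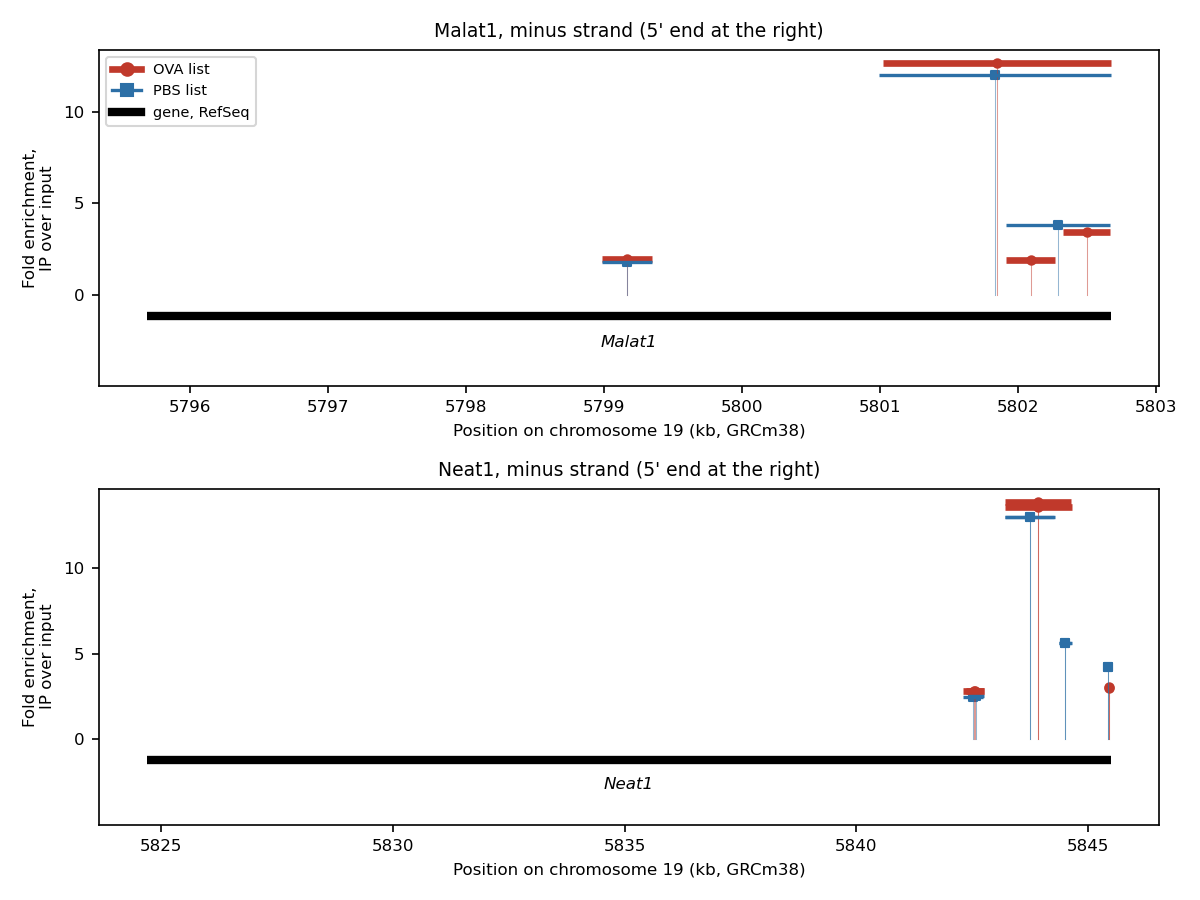
Peaks called on Malat1 and Neat1, drawn at their position on chromosome 19 (kb, GRCm38) against fold enrichment of IP over input; bars span each peak, symbols mark its middle, and black bars are the genes in RefSeq. In both lists the highest peak of Malat1 (12.7 and 12) reaches its 5′ end, and the Neat1 peaks lie in the 5′ part of the gene.

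Paraspeckle proteins were set beside Neat1 as a fixed list of 9 genes. A peak was called on 7 of them in each list, the same 7 genes, beside 52.0% (OVA) and 50.5% (PBS) of all RefSeq protein-coding genes. They held 12 OVA and 13 PBS peaks, with median fold enrichments of 2.54 and 2.11. Tardbp, which encodes the RNA-binding protein TDP-43, had 2 OVA peaks (2.79 and 7.30) and 3 PBS peaks between 1.49 and 5.93.

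Meg3, Rian and Mirg are transcribed one after another from the maternal copy of the imprinted Dlk1-Dio3 domain on chromosome 12. Rian hosts many C/D box small nucleolar RNAs, and all 3 genes span microRNA hairpins. Each gene had a peak close to its 3′ end, which was the strongest or only one of the gene in its list, except for Meg3 in the OVA list, where a peak of 8.73 further upstream stood beside it at 8.44. Distances from the 3′ end of the peak to the RefSeq 3′ end of the gene were 33 bp for Meg3 in both lists, 599 bp (OVA) and 629 bp (PBS) for Rian, and 118 bp for Mirg.

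The 3′ peak of Meg3 showed the largest ratio of fold enrichments between the lists among member peaks of like span. At chr12:109571396-109571696 it was 8.44 in the OVA list, and at chr12:109571426-109571696 it was 24.2 in the PBS list, 2.87 times as high. The log10 p went the other way, at -30.1 (OVA) and -9.42 (PBS). The PBS value exceeded 96.1% of its list and the OVA value 64.3% of its own. The lists hold no replicate values against which to set this difference.

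Meg3 had a further peak around a start that RefSeq places inside the gene. It spanned chr12:109545419-109545599 in the OVA list, with a fold enrichment of 2.15, and chr12:109545311-109545449 in the PBS list, with 4.16 over 61 bases in 2 exonic blocks. Another Meg3 peak, chr12:109561107-109561257, was in the OVA list alone, with a fold enrichment of 8.73 and a log10 p of -4.20. The first 50 bases after the internal start (chr12:109545398-109545447, plus strand, GRCm38.p6, RefSeq) show what these peaks share: 29 of them lay in the OVA peak and all 50 in the PBS peak. Capitals mark the 2 matches to the methylation core, which is a description of letters and not of a methylated base.
Meg3: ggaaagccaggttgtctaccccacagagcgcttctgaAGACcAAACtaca

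Of these Meg3 peaks, the lists assign the OVA peak at 109561107 to Mir770 and the 3′ peaks to Mir673, by the nearest transcript start. Neither hairpin was inside its peak. The Mir770 hairpin (chr12:109563692-109563785) began after a gap of 2434 bp and the Mir673 hairpin (chr12:109571990-109572080) after 293 bp. Among the 15 RefSeq hairpins within the spans of the 10 genes, 10 of them in Mirg and 3 in Rian, 0 lay under any peak of either list, while 24 of all 1005 hairpins did in each. The mature sequences of both microRNAs (RefSeq, GRCm38.p6) are given so that these names can be told from the Meg3 RNA that was measured. Capitals mark the seed, bases 2 to 8, and no seed was shared.
miR-770-5p: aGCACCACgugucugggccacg
miR-770-3p: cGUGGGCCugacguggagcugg
miR-673-5p: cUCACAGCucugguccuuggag
miR-673-3p: uCCGGGGCugaguucugugcacc

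Rian carried its main peak in the last exon, exon 26 of 26 in the model named by the lists. Its fold enrichment was 13.7 at chr12:109660727-109661117 (OVA) and 10.4 at chr12:109660727-109661087 (PBS), with log10 p values of -235 and -123. In exon 25 a second peak had 3.21 at chr12:109659710-109659919 (OVA) and 2.16 at chr12:109659769-109659919 (PBS), where its FDR was 0.109. An upstream peak at chr12:109646453-109646543, with a fold enrichment of 2.88 and an FDR of 0.0302, was in the OVA list alone. Both shared Rian peaks had the higher value in the OVA list, by 1.32 and 1.49 times.

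Mirg, the most distal of these RNAs and the host of a large microRNA cluster, had 1 peak of 60 bp in exon 17 of 17 at chr12:109749281-109749340. Its fold enrichment in the OVA list was 11.8, with a log10 p of -3.19 and an FDR of 0.00417. No PBS peak overlapped it.

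The protein-coding genes of the domain were fixed as a list of 4. Begain, a synaptic scaffold-associated gene, had 2 peaks in each list, with fold enrichments of 2.40 and 5.01 (OVA) and of 3.62 and 2.52 (PBS). Dio3, the deiodinase that inactivates thyroid hormone, had a pair of nearly identical OVA peaks (22.1 each, from chr12:110280142 and chr12:110280147 onward) and none in the PBS list. Dlk1 and Rtl1 had none in either list.

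**Figure D3:**
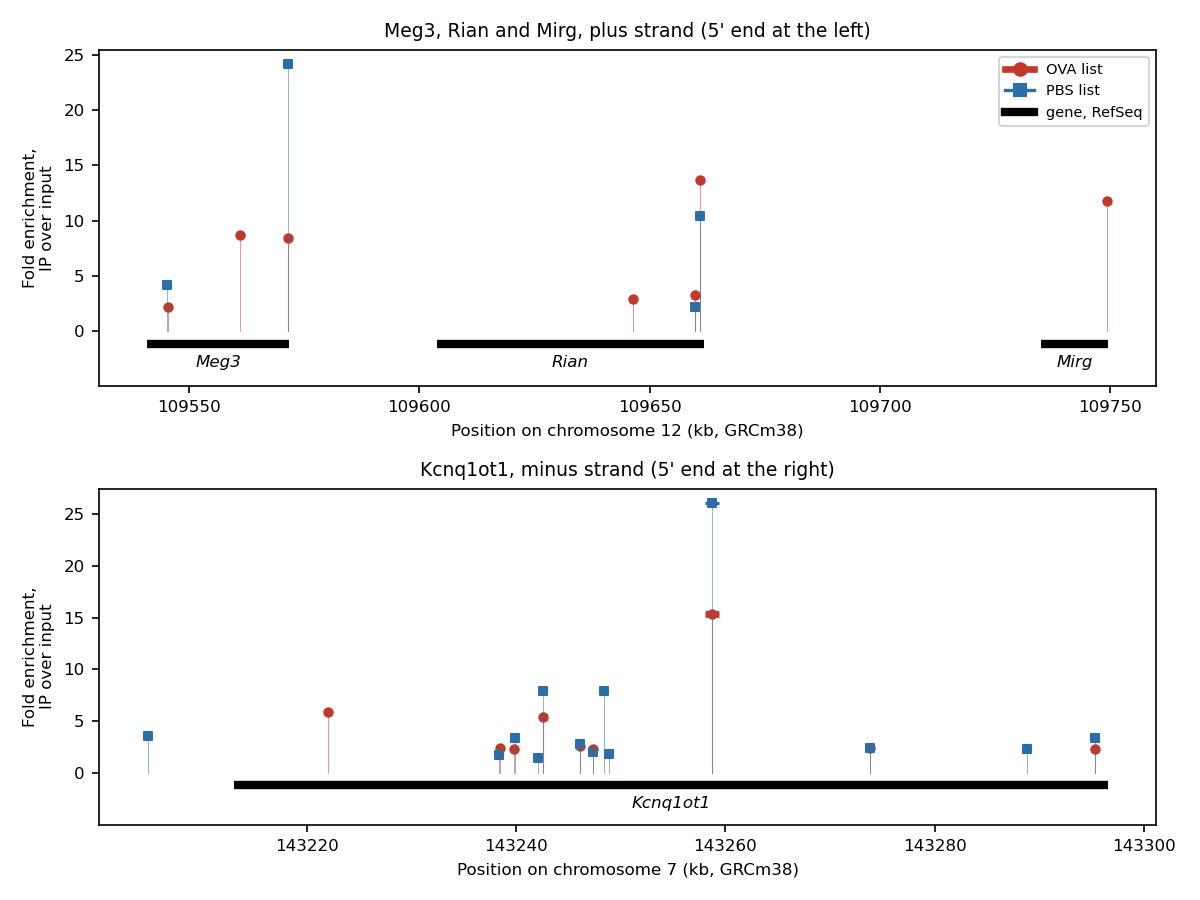
Peaks called on Meg3, Rian and Mirg (chromosome 12) and on Kcnq1ot1 (chromosome 7), at their positions (kb, GRCm38) against fold enrichment of IP over input; symbols mark the middle of each peak, and black bars are the genes in RefSeq. The Meg3 peak at the 3′ end stands at 24.2 in the PBS list and 8.44 in the OVA list, and the highest Kcnq1ot1 peak at 26.1 and 15.4.

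Kcnq1ot1 is a long unspliced RNA transcribed from the paternal copy of an imprinted domain on chromosome 7, antisense to Kcnq1, and it silences neighbouring genes on that copy. Its main peak lay inside the transcript, away from both ends, at chr7:143258071-143259361 (OVA) and chr7:143258071-143259391 (PBS). Fold enrichment there was 15.4 and 26.1, above 85.1% and 97.0% of the peaks of each list, and the log10 p was -300 and -430. The peak was also the widest of the gene in both lists, and it ended 37186 bp (OVA) and 37156 bp (PBS) from the RefSeq 5′ end. The higher value was in the PBS list, by 1.69 times.

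Of the 9 OVA peaks of Kcnq1ot1, 8 had a PBS counterpart and 3 of these had identical borders. The pair with identical borders nearest the 5′ end, chr7:143295139-143295499, had a fold enrichment of 2.32 (OVA) and 3.38 (PBS). The other 2, from 143246015 and 143273726 onward, had 2.60 and 2.36 (OVA) and 2.75 and 2.39 (PBS). Next to the main peak in strength among shared ones was the peak ending at 143242926, with 5.44 (OVA) and 7.90 (PBS).

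A single Kcnq1ot1 peak was in the OVA list alone, chr7:143221962-143222052, with a fold enrichment of 5.90 and an FDR of 0.0182. Those of the PBS list alone had 3.54 at chr7:143204778-143204898, 1.44 at chr7:143242026-143242206, 7.90 at chr7:143248354-143248534 and 2.32 at chr7:143288751-143288811, with FDRs of 0.00562, 0.00339, 0.0123 and 3.09e-06. The remaining PBS peak, at chr7:143248864-143248924, had an FDR of 0.117. The first of the PBS peaks lies beyond the RefSeq model (chr7:143213111-143296547) but within the longer model of the lists (chr7:143203458-143296549), and was assigned to Gm28821. Peaks covered 3.53% of the RefSeq gene (OVA) and 4.01% (PBS).

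H19, the maternally expressed RNA next to Igf2 and host of miR-675, had no peak in either list (chr7:142575530-142578146). Absence from a peak list does not give the level of the RNA, which these lists do not hold.

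Of 13 further genes of the Kcnq1 and Igf2 domains, 7 had a peak in each list, 6 of them in both, which is close to the share of all protein-coding genes. Tssc4 had 2 OVA peaks, with fold enrichments of 4.83 and 39.5, and 3 PBS peaks, with 7.65, 5.16 and 5.59. The wide OVA peak at chr7:143069844-143071093 covers the same stretch as a pair of PBS peaks, at chr7:143069993-143070677 and chr7:143070766-143071093. Tspan32, a tetraspanin, had 2 OVA peaks (16.9 and 1.69) and 1 PBS peak of 1.80, which overlapped neither of them. The peaks of 1.69 and 1.80 both missed an FDR of 0.05. Of 14 other imprinted genes elsewhere in the genome, 10 had a peak among the OVA peaks and 11 among the PBS peaks, against the 52.0% and 50.5% of protein-coding genes. The most peaks lay on Peg10 (4 OVA, 3.52 to 19.6, and 5 PBS, 4.30 to 21.7) and on Peg3, a zinc finger gene (4 OVA, 1.91 to 14.5, and 5 PBS, 2.11 to 13.1).

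Gas5, Snhg1 and Snhg11 are host genes of small nucleolar RNAs, which are cut from introns and guide the modification of other RNAs. Only Snhg11 had peaks. Its strongest was at chr2:158383130-158383548 in the OVA list, with a fold enrichment of 5.52 and a log10 p of -205, and at chr2:158383159-158383518 in the PBS list, with 4.31 and -52.9. A second peak ended at 158385523 in both lists and had 4.17 (OVA, from 158385254) and 3.81 (PBS, from 158385373).

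Toward the 3′ end of Snhg11, a further peak at chr2:158386031-158386151 was in the OVA list alone, with a fold enrichment of 2.21 and a log10 p of -7.39. Both shared Snhg11 peaks had the higher value in the OVA list. The lists describe all 5 peaks as lying in a 3′ untranslated region and assign them to Gm25129, a small nucleolar RNA model of 133 bases (chr2:158379534-158379666) upstream of each of them. Peaks covered 7.53% of the Snhg11 span (OVA) and 4.75% (PBS).

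Gas5 had no peak of its own, but near its start its span (chr1:161034601-161038539) met that of a peak called on Zbtb37, a neighbouring zinc finger gene. That peak ran over chr1:161031835-161034819 in both lists, with its last exonic block of 42 bases (chr1:161034778-161034819) inside the Gas5 span, and had fold enrichments of 9.44 (OVA) and 8.63 (PBS). Snhg1 (chr19:8723487-8726326) had no peak over its span in either list.

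Other host genes were counted beside them. Of 17 further small nucleolar RNA hosts, 15 were matched by symbol and 3 had a peak, the same 3 in both lists, beside 5.95% (OVA) and 5.58% (PBS) of all RefSeq lncRNA genes. Snhg17 had 1 OVA peak of 7.19 and 2 PBS peaks of 2.22 and 11.6, and Snhg14, an imprinted host, had 1 in each list, at 13.3 and 14.7. Among 23 other lncRNAs matched by symbol, 15 had a peak in each list and 14 in both. Both lists, like the members, are of well-known genes. Xist, which silences an X chromosome in female cells, had 7 peaks in each list with values of up to 58.5 (OVA) and 85.9 (PBS), and Tug1 had 5 in each, of up to 32.4 and 28.4. Both reached higher fold enrichments than any of the 10 member genes.

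Fold enrichments of overlapping peaks on the same gene were set side by side for 25 OVA member peaks. The OVA value was the higher for 12 and the PBS value for 13, and the median ratio of OVA to PBS was 0.992, beside 1.09 over all 21914 such pairs. A PBS value at least 2-fold higher was found for 2 of the 25, against 6.48% of all pairs, and an OVA value at least 2-fold higher for 0, against 7.68%. The pair of Meg3 at its 3′ end was 1 of the 2. The other was the Malat1 peak of 86 exonic bases, set against a PBS peak of 485. The direction turned when the 26 PBS member peaks with a partner were matched to OVA peaks instead, a count added after seeing the data. With this matching the OVA value was the higher for 15 and the PBS value for 11. The median ratio of OVA to PBS was 1.07, beside 1.11 over all such pairs. An OVA value at least 2-fold higher was then found for 3, against 10.1% of all such pairs, and a PBS value at least 2-fold higher for 1, the Meg3 peak, against 4.85%. Those 3 were the short-model Malat1 peak (3.82 beside 12.7) and both copies of the second Neat1 peak (5.63 beside 13.9 and 13.6), each set against a wider OVA peak. These counts are too small to set the members apart from the lists.

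Names given to the peaks often differed from the gene on which they were called. This held for 12 of 30 OVA members (40.0%), beside 22.5% of all OVA peaks, and for 12 of 31 PBS members (38.7%), beside 22.8% of all PBS peaks. Of these, 4 OVA and 6 PBS peaks were Neat1 peaks named Gm27533, counted on both Neat1 models. Small models nested in or near the lncRNAs gave the names in Malat1, Meg3 and Snhg11 too, and the rest were the Frmd8 peak in each list and the Kcnq1ot1 peak named Gm28821. Snhg11 would show no peak at all by assigned name.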

How the data were processed

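Lung RNA of 3 OVA and 3 PBS mice gave 6 IP and 6 input libraries. The authors trimmed reads with FASTP, aligned them with HISAT2, ran exomePeak to call peaks and ChIPseeker to annotate these. There is 1 deposited list per group, and how replicates were combined is not stated in the sources used here. The deposited fold enrichment is the authors' ratio of IP over input. Deposited log10 values of p and FDR are treated as scores, each a score the authors' caller gave. Deposited starts count from 0: in the OVA list 643 starts lay 1 base before the start of the assigned transcript and 17 on it, so 1 was added.

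Lists were compared by exonic block overlap of at least 1 bp on the same strand, where the called gene's strand was known. For each OVA peak, partners were the PBS peaks called on the same gene with the largest overlap. Ties went to the larger share of the union, a choice made after the data were seen. Gene spans, windows and microRNAs are RefSeq's (GRCm38.p6), and 8 of the 10 genes had a start window. Named peaks are all of a gene with up to 4 in a list, otherwise the strongest, the one of lowest p, the widest and those of 1 list alone at an FDR under 0.05. Further Kcnq1ot1 and Neat1 peaks were named after their values were seen. From each gene list, the 2 genes with most peaks are named, with ties decided by the higher fold enrichment, except 1 that is not reported here. Members and lists were chosen with earlier results of these data known. Tools were Python 3.11.15, numpy 2.4.6, pandas 2.3.3, scipy 1.17.1 and matplotlib 3.10.9, and the overlap code was tested on simulated data.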

Additional observations from a re-analysis of the deposited data

How the results depend on the processing

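Of 42 values recomputed under other settings, 35 stayed within the limit set for them (1.5 times for counts, a 95% binomial interval for shares and medians) and 7 moved. By assigned name only, member peaks fell to 19 (OVA) and 20 (PBS), since peaks assigned to other models, nested or nearby for most, are dropped. Requiring identical start and end left 13.3% of OVA and 12.9% of PBS members with a counterpart, beside 10.3% and 10.7% of all peaks. Pairs that differ 2-fold numbered 1 of 22 when an overlap of 50% of both peaks was required (10.7% of all pairs), and 4 of 25 at a 1.5-fold limit (30.5%). They numbered 4 of 26 (14.9% of all pairs) when matched from the PBS peaks, added after seeing the data, with 3 of these higher in OVA, against 0 of 25 when matched from the OVA peaks. Counting each region once, an alternative chosen after seeing the data because Neat1 and Malat1 peaks are called on nested models, left 25 OVA and 26 PBS peaks. The medians and the overlap shares stayed within their limits under this setting. No paired analysis was possible because the lists hold no values of single mice, and for the same reason leaving out replicates could not be run. Without read counts per peak, the precision of a fold enrichment is unknown, and a missing peak cannot be told apart from low depth.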
